A study of Mus musculus with 10 samples.

Results

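The spinal cord at thoracic level T10 was compared between mice at 3 days after spinal cord injury and mice after a sham operation. All animals were wild-type ICR mice, an outbred laboratory stock, and the labels give an age of 4 weeks for every group, without saying whether this is the age at surgery or at collection. Each group was 1 pool of RNA from 3 mice, mixed by equal mass, and each pool is represented by 1 gene-level and 1 exon-level array sample. The comparison therefore uses 4 of the 10 samples of the series, and the other 6, from 1 day, 1 week and 3 weeks after injury, enter only the filter on low signals and the statements on other times. The labels give neither the way the injury was made nor the time between the sham operation and collection. Since no group has a replicate array, no difference below carries a test, a p-value or an error between animals.

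Signals are log2 values as deposited, 1 per transcript cluster (the probes of 1 gene locus) at the gene level and 1 per probe set (several probes of the same exon) at the exon level. Of 14847 genes with a single symbol on the gene-level array, 11272 had a signal of at least 3.79 on 1 or more of the 5 arrays, and these are the tested genes. A gene is said to have risen or fallen where the 3 days signal lay at least 2-fold above or below the sham signal, which is 1 on the log2 scale. Where a median ± SD over probe sets stands beside a gene, the SD describes how the probe sets of that gene varied and says nothing about mice. Whole tissue was measured, so fewer cells of a type and less RNA per cell cannot be told apart. The markers of spinal cord were present. On the sham array the thoracic and more caudal positional gene Hoxc8 had a signal of 9.71, the myelin gene Mbp 11.79, the neuronal gene Snap25 12.35 and the astrocyte gene Gfap 10.93.

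Injury to the spinal cord breaks its vessels, cuts axons and kills neurons and glia, and the days that follow bring neutrophils and then monocytes from the blood into the lesion. Those monocytes become macrophages that, together with resident microglia, take up myelin and cell debris. Astrocytes around the lesion turn reactive, and glial, vascular and connective tissue cells divide and begin to lay down matrix.

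At 3 days, 669 genes had risen and 1080 had fallen relative to sham. These are 5.94% and 9.58% of the tested genes, 15.5% in all, and every count for a gene group below is to be read against these shares. Falls were more numerous and rises were larger. Of the rises, 247 (2.19% of tested genes) reached 4-fold, 94 reached 8-fold and 31 reached 16-fold, and of the falls 55 (0.488%) reached 4-fold, 1 reached 8-fold and none reached 16-fold. The median difference was 1.70 among genes that rose and -1.29 among genes that fell. Over all tested genes it was -0.12, with 3329 genes above 0, 6950 below 0 and 993 at exactly 0. After quantile normalization, which gives both arrays the same distribution, the calls were 785 higher and 767 lower (50.6% higher, against 38.3% as deposited). That scaling moved the median of all genes by 0.10. The cause of the change in the split was not tested. Medians of gene lists below are over the members that passed the filter. A value with no filter is given beside some of those that it moved by over 1.5 times.

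**Figure D1:**
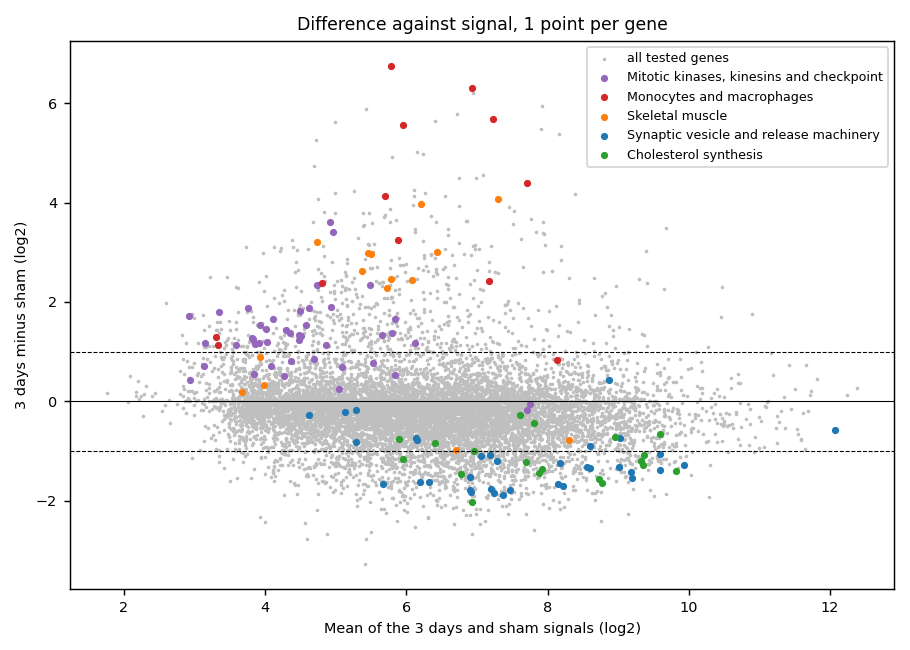
Log2 difference, 3 days minus sham (vertical axis), against the mean of the 3 days and sham log2 signals (horizontal axis), 1 point per tested gene, with 5 gene lists in colour and dashed lines at 2-fold. Most macrophage, muscle and mitotic genes lie above 0 at low to middle signal, and the cholesterol genes and all synaptic genes but Syt4 lie below 0.

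Where a gene lay on the signal scale went in part with its direction. Among genes with a mean signal under 4, 7.97% rose and 2.21% fell, and among those between 9 and 10, 2.78% rose and 19.7% fell. The 114 genes at 10 or above broke this order, with 3.51% higher and 5.26% lower. Of the 669 genes that rose, 176 (26.3%) had a sham signal below the filter level of 3.79, so the size of their rise is rough. Of the 1080 that fell, 60 (5.56%) had a 3 days signal below it. The 993 genes at exactly 0 (8.81%) had the same gene-level value on both arrays to every deposited digit. At the exon level only 462 of 229581 probe sets (0.201%) were identical on the 2 arrays, against 2435 of 23332 transcript clusters (10.4%). Sox9, a transcription factor of astrocytes, is such a gene with 7.14 on both arrays and a probe set median of 0.11. Aldh1l1, a folate enzyme used as an astrocyte marker, is another with 6.67 on both and a probe set median of -0.04. Of the 979 identical genes that had probe sets, 938 had a probe set median under 0.5 in size, and the range was -0.95 to 1.29. How the deposited gene-level values were summarised was not given in the sources used here. A difference of exactly 0 may therefore not be a measured equality.

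The exon-level arrays gave another reading of each gene. Probe sets that passed their own filter were found for 11064 genes, with a median of 10 per gene. Of the 656 genes that rose and had probe sets, 639 had a probe set median at or above 1, 16 were between 0 and 1, and 1 lay below 0. Of the 1062 that fell, 1003 had a probe set median at or below -1, 53 lay between -1 and 0, and 6 lay above 0. By the probe set median alone, 7.55% of the 11064 genes were at least 2-fold higher and 13.3% at least 2-fold lower. Among genes with at least 4 probe sets, every probe set moved the same way in 442 of 620 genes that rose and in 738 of 977 that fell. The probe sets of a gene differed more where the gene rose (median SD 0.82) than where it fell (0.60) or did neither (0.47). This SD also went with signal, with a median of 0.65 for genes of mean signal under 4 and 0.23 at 10 or above. How far signal accounts for the difference between rises and falls was not tested. Across genes the 2 levels had a Pearson r of 0.953, given as a description, since both levels share the pools and genes are not independent replicates.

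**Figure D2:**
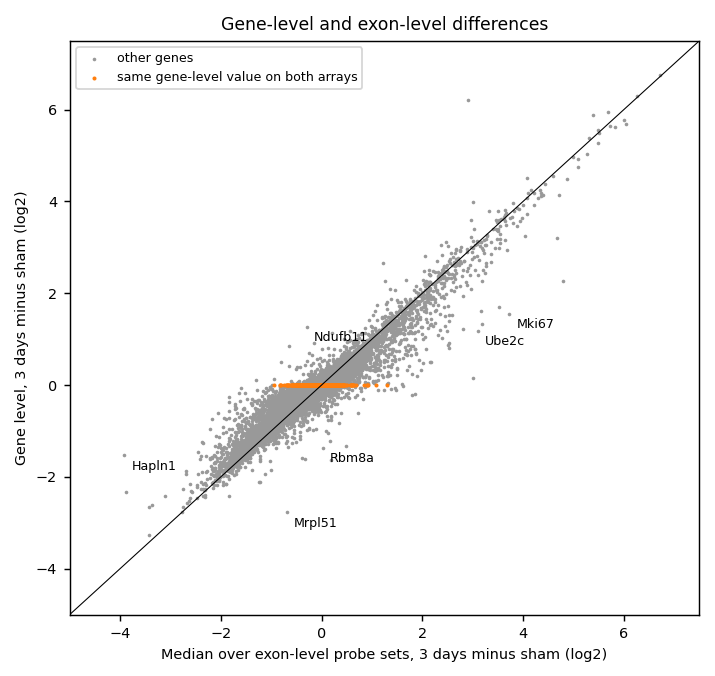
Gene-level log2 difference, 3 days minus sham (vertical axis), against the median difference over the exon-level probe sets of the same gene (horizontal axis), 1 point per gene, with the line of equality. Genes with the same gene-level value on both arrays form the orange row at 0, and the named genes are among those farthest from the line.

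Some genes named for division or mitochondria differed between the levels. Mki67, a nuclear protein of dividing cells and the usual proliferation marker, was at 4.70 at 3 days and 3.16 in sham at the gene level, a difference of 1.55, against a probe set median of 3.73 ± 1.00 over 4 probe sets. Ube2c, which loads ubiquitin for exit from mitosis, differed by 1.18 at the gene level, and its 6 probe sets ran from -1.63 to 5.22. Kif20b, a mitotic kinesin, differed by 1.18, and its 12 probe sets ran from -0.05 to 6.53. The gene-level values of these mitotic genes thus lay below most of their exons. The reverse held for Uhrf1, which carries DNA methylation through replication, at 2.66 against a probe set median of 1.21 ± 1.37 over 14 probe sets. Hapln1, which links hyaluronan to proteoglycans, fell by 1.53 at the gene level and had a probe set median of -3.92 ± 1.16 over 5 probe sets. In 17 of the 1597 called genes with at least 4 probe sets, the gene-level difference equalled that of 1 single probe set within 0.00001. Rbm8a, a core protein of the exon junction complex, was such a gene, at -1.36 while its 8 probe sets had a median of 0.03. Ndufb11, a subunit of respiratory complex I, was at 1.27 while its 6 probe sets had a median of -0.29. Such calls rest on 1 exon.

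**Figure D3:**
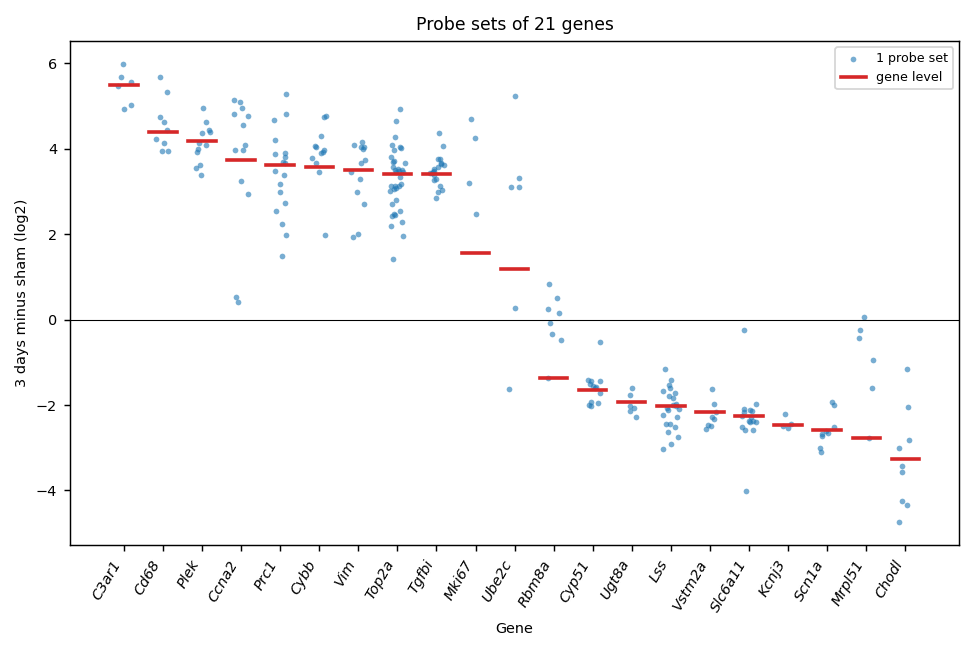
Log2 difference, 3 days minus sham (vertical axis), of every probe set (blue points) and of the gene level (red bar) for 21 genes (horizontal axis) in order of their gene-level difference. The probe sets of C3ar1, Tgfbi and Scn1a lie close together, those of Ccna2 and Prc1 are spread over several units, and those of Ube2c, Rbm8a and Mrpl51 lie mostly on 1 side of the bar.

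Receptors with which phagocytes recognise antibody, debris and microbes rose together, and their list had the highest median of the pathway lists. Among Fc receptor and Tyrobp signalling genes, 15 of 17 tested members (22 listed) rose and none fell, with a median of 2.24. Of the 15 that rose, 6 had a sham signal below the filter level. Clec5a, a myeloid lectin that signals through Tyrobp, had a signal of 6.73 at 3 days and 2.92 in sham. Tyrobp itself, the adaptor that carries the activating motif, was at 8.76 at 3 days and 5.63 in sham, and the antibody receptor Fcgr4 was at 5.95 at 3 days and 2.84 in sham, 8.64-fold higher. The list holds both arms of the pathway, and both were higher: the kinases Btk (1.60) and Syk (1.08) and the inhibitory phosphatases Ptpn6 (2.52) and Inpp5d (2.24) all rose.

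Among Toll-like receptors and their adaptors, 12 of 17 tested members (20 listed) rose and none fell, with a median of 1.99. Tlr13 and Tlr7, which sense bacterial and single-stranded RNA inside endosomes, differed by 4.19 and 3.87. Cd14, which hands lipopolysaccharide to the receptor Tlr4, had a signal of 7.77 at 3 days and 3.64 in sham, and Tlr4 differed by 1.99. The B cell and myeloid receptor Cd180 had a signal of 9.44 at 3 days and 5.61 in sham (3.92 ± 1.20 over 7 probe sets), while B cell markers did not rise (0 of 4 tested). Of the signalling adaptors, Myd88 rose by 2.21. The range over the list was -0.36 to 4.19.

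A pair of phagocyte promoters, of Fcgr4 and Ctss, are shown because they hold a purine-rich element of the kind bound by the myeloid factor PU.1. The letters GAGGAAGT, on either strand, were found within the 300 bases around the start of a gene in 7.63% of the promoters of genes that rose (40 of 524) and in 1.05% of those of genes that fell (9 of 860), against 2.73% over all tested genes with a promoter (247 of 9059). Of the Fc receptor and Tyrobp list 3 of 16 promoters held it, and of the monocyte and macrophage markers 0 of 8. The AP-1 letters TGANTCA were found in 9.35% of promoters of genes that rose, in 14.7% of those that rose 4-fold (27 of 184) and in 3.95% of those that fell, against 5.07% over all. Sequences are RefSeq's, on GRCm38.p6, written 5′ to 3′ on the gene's strand from 250 bases before the first listed start to 50 after it, with the element in capitals. Fcgr4 (chr1:171018676-171018975, + strand) and Ctss (chr3:95526536-95526835, + strand), a cathepsin of antigen-presenting cells that was at 10.59 at 3 days and 8.22 in sham, hold the PU.1-like letters, starting at -24 and -2 from the start. Cd68 (chr11:69666121-69666420, - strand), a macrophage lysosomal protein that was at 9.90 at 3 days and 5.51 in sham, holds the AP-1 letters at -149 and -24. A match is a description of the letters only. None of the motifs searched is contained in another, and the AP-1 letters read the same on both strands up to their middle base.
Fcgr4: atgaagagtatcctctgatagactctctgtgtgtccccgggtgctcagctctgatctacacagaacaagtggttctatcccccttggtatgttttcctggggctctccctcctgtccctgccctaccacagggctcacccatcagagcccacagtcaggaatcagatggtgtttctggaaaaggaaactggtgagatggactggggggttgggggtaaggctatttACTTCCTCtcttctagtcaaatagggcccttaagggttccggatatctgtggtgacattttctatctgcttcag
Ctss: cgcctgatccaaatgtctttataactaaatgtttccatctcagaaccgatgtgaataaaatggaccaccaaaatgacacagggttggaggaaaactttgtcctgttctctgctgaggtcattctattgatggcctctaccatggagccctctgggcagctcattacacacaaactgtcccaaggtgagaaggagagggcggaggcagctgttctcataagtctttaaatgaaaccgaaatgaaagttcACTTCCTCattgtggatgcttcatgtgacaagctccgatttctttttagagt
Cd68: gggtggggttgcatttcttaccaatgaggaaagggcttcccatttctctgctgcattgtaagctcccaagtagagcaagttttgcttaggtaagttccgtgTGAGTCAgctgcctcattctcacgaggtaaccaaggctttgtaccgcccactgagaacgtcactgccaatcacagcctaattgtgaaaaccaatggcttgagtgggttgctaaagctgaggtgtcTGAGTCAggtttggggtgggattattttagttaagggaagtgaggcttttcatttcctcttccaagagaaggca

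Chemokines, the attractants of leukocytes, rose in part in both of their main classes. Of CC chemokines, 6 of 13 tested members (18 listed) rose and none fell, with a median of 0.99. That median depends on which members pass. It was 0.76 with no filter and 2.10 with the filter on the 3 days and sham arrays alone. At the exon level, 9 of 16 members with probe sets were at least 2-fold higher and 2 at least 2-fold lower. The ligands of the monocyte receptor Ccr2 were among those that rose at the gene level, with Ccl2 at 8.61 at 3 days and 4.48 in sham. Ccl12 lay 3.53 and Ccl7 3.23 above sham, and Ccr2 itself rose by 1.30. Ccl3, a ligand of Ccr1, was at 8.98 at 3 days and 4.50 in sham, and Ccr1 rose by 3.08. Of 11 chemokine receptors 3 rose, the other being the neutrophil receptor Cxcr2 (2.30). Among CXC and CX3C chemokines 5 of 10 tested members rose and 1 fell, with a median of 0.86 (0.33 with no filter). Cxcl10, induced by interferon, was at 7.17 at 3 days and 3.62 in sham, the platelet chemokine Pf4 differed by 2.78, and the neutrophil attractant Cxcl2 by 1.81. The one that fell was Cx3cl1, the membrane-bound chemokine of neurons, at 6.89 at 3 days and 8.71 in sham, while its microglial receptor Cx3cr1 differed by 0.87 and did not reach 2-fold.

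Cytokine pathways showed their receptors and brakes beside their ligands. In the interleukin-1 family and inflammasome list, 9 of 13 tested members (17 listed) rose and none fell, with a median of 1.24. Il1r1, the signalling receptor, was at 6.25 at 3 days and 3.94 in sham, the receptor antagonist Il1rn differed by 2.27 and the decoy receptor Il1r2 by 1.11, while the ligands Il1a (1.24) and Il1b (1.11) stood near the 2-fold line. Casp4 and Casp1, the proteases of the inflammasome, differed by 2.40 and 1.88, and their adaptor Pycard by 2.28. In the interleukin-6 list 4 of 12 rose and 1 fell. Osmr, the receptor of oncostatin M, was at 7.38 at 3 days and 4.61 in sham, the feedback inhibitor Socs3 differed by 1.71 and Stat3 by 1.06, and the ciliary neurotrophic factor receptor Cntfr fell by 1.34. Of the tumour necrosis factor list 4 of 18 rose, 3 of them receptors, with Tnfrsf12a at 8.20 at 3 days and 5.96 in sham and Tnfrsf1b at 6.57 at 3 days and 4.61 in sham.

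Complement genes rose in part, with C3ar1 and the C1q chains among them. In the list, 7 of 13 tested members (25 listed) rose and none fell, with a median of 1.22. That median depends on which members pass: it was 0.14 over the 15 members on the array with no filter and 2.62 with the filter on the 3 days and sham arrays alone. The 3 chains of C1q, which starts the classical pathway, differed by 2.84 (C1qa), 2.62 (C1qb) and 3.26 (C1qc). C3ar1, the receptor of the C3a fragment, was at 10.66 at 3 days and 5.17 in sham, 44.8-fold higher, with probe sets at 5.52 ± 0.40 over 6 probe sets. Over the same 13 members the exon-level median was 1.37, and over all 20 listed members with probe sets it was 0.51. Of the antigen-presentation lists, 5 of 7 MHC class II genes rose (median 1.60, and 1.89 at the exon level over the same genes). Over all 11 listed class II members with probe sets the exon-level median was 0.78, with 5 at least 2-fold higher and 2 lower. The invariant chain Cd74 was at 7.34 at 3 days and 4.46 in sham. Of class I genes 3 of 10 rose (median 0.65), with the immunoproteasome subunit Psmb8 at 6.78 at 3 days and 4.36 in sham.

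Interferon-stimulated genes, which block viral replication and sense foreign RNA, rose in 14 of 18 tested members (27 listed), with a median of 1.32 and no member below 0. Ifit1, which binds RNA lacking a host cap, had a signal of 6.48 at 3 days and 2.87 in sham, 12.2-fold higher. Rsad2, which makes a chain-terminating nucleotide, was at 7.72 at 3 days and 5.47 in sham. Among the pathway's own factors, Irf7 (1.64), Irf8 (1.92) and Irf9 (1.33) rose. The letters of the interferon element, GAAA repeated after a gap of 2 bases, on either strand, stood in 9 of the 17 list promoters (52.9%), in 6.68% of promoters of genes that rose, in 2.44% of those that fell and in 2.81% over all tested genes. These promoters are shown for Ifit1 (chr19:34640639-34640938, + strand), with matches at -104 and -85 from the start, and Rsad2 (chr12:26456403-26456702, - strand), with 1 match at -120, the element again in capitals.
Ifit1: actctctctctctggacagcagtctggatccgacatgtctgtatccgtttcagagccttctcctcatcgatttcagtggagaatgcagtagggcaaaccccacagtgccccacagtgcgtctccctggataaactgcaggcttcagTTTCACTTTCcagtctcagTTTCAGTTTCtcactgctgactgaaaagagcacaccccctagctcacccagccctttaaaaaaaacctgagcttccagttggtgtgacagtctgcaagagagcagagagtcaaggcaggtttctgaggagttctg
Rsad2: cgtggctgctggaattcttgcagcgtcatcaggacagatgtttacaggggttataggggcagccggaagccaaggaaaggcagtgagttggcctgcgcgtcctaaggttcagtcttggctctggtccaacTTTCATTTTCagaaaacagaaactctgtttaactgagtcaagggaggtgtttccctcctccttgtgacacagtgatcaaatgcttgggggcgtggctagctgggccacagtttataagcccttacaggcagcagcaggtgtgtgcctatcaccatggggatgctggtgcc

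The phagocyte oxidase, which makes superoxide in engulfed vesicles, rose in its subunits. Cybb, the catalytic chain, was at 7.30 at 3 days and 3.72 in sham, its partner Cyba at 7.98 at 3 days and 5.90 in sham, and the cytosolic subunits Ncf1 and Ncf4 differed by 2.94 and 2.21. In the whole list of oxidative enzymes 6 of 15 rose, with a median of 0.34 (0.20 with no filter). Of the genes used as markers of alternatively activated macrophages, 10 of 13 tested members (19 listed) rose and none fell, with a median of 2.10. Chil3, a chitinase-like secreted lectin, was at 7.80 at 3 days and 2.18 in sham, F13a1, the clotting transglutaminase of macrophages, at 8.72 at 3 days and 3.74 in sham, and the interleukin-4 receptor chain Il4ra at 7.73 at 3 days and 5.15 in sham. The mannose receptor Mrc1 differed by 1.59.

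Of the lysosome, the digestive enzymes and the acid pump are given in turn, and the difference between them was not tested. Lysosomal hydrolases and cathepsins had 13 of 33 tested members higher and 2 lower (median 0.78). Ctsc, which activates granule proteases, was at 8.72 at 3 days and 4.79 in sham, and Ctsh, Ctsz, Ctsl and Ctsd differed by 2.60, 2.48, 2.47 and 1.77. The 2 that fell were the glycogen-degrading Gaa (7.62 at 3 days and 8.86 in sham) and the cathepsin Ctsf (5.79 at 3 days and 6.97 in sham). The vacuolar proton pump had 2 of 18 higher and 1 lower, with a median of -0.24. Its 2 higher members were Atp6v0d2, an isoform of osteoclasts and macrophages (6.79 at 3 days and 2.71 in sham, 16.9-fold), and Tcirg1, another isoform of those cells (1.17), and the one that fell was the neuronal isoform Atp6v1g2 (-1.13). The pump's 15 other tested subunits changed by less than 2-fold.

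In lipid handling 5 of 19 genes rose and 1 fell (median 0.24). Msr1 had the largest rise of the list, at 9.16 at 3 days and 2.40 in sham (108-fold), with the sham signal below the filter level. Cd36, a fatty acid and lipoprotein receptor, was at 7.07 at 3 days and 2.33 in sham, the lipid droplet coat Plin2 at 9.64 at 3 days and 6.27 in sham and the cholesterol exporter Abca1 at 8.56 at 3 days and 5.95 in sham. In haem and iron handling 6 of 25 rose and 3 fell, and the members lay on both sides of the pathway. Hmox1, which degrades haem, was at 10.89 at 3 days and 4.95 in sham, the haemoglobin-binding protein Hp differed by 2.58 and the phagosomal metal exporter Slc11a1 by 2.89. The genes that fell were the haem synthesis enzymes Cpox (-1.20) and Alas2 (-1.26) and the transferrin receptor Tfrc (-1.04).

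Calcium-binding and cytoskeletal genes of moving cells rose in part. Of S100 and annexin genes, 10 of 17 tested members (22 listed) rose and none fell, with a median of 2.03 (0.86 with no filter, over the 20 members on the array). The neutrophil pair S100a8 and S100a9 differed by 2.98 and 3.79, S100a6 was at 9.29 at 3 days and 5.72 in sham and Anxa1, an annexin that limits neutrophil entry, at 7.28 at 3 days and 3.50 in sham. Of actin regulators 13 of 32 rose and none fell (median 0.74). Plek, a platelet and leukocyte substrate of protein kinase C, was at 10.48 at 3 days and 6.31 in sham (4.11 ± 0.46 over 12 probe sets), the filament capper Capg at 7.10 at 3 days and 4.42 in sham and the leukocyte plastin Lcp1 at 8.37 at 3 days and 6.43 in sham. Vim, the intermediate filament of reactive and mesenchymal cells, was at 11.43 at 3 days and 7.94 in sham. Integrins had 5 of 18 higher (median 0.26, and 0.12 with no filter). The leukocyte chains Itgb2 and Itgam differed by 2.94 and 2.43 and the fibronectin receptor chain Itga5 by 2.07.

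Genes of mitosis and of DNA replication rose in part. Of 46 tested mitotic genes (57 listed) 33 rose and none fell, with a median of 1.26 at the gene level and 1.77 at the exon level over the same genes. Prc1, which bundles microtubules of the dividing spindle, was at 6.73 at 3 days and 3.12 in sham, 12.2-fold higher with probe sets at 3.56 ± 1.00 over 18 probe sets. Top2a, which untangles replicated chromosomes, was at 6.67 at 3 days and 3.26 in sham (3.39 ± 0.75 over 36 probe sets), and Tpx2, a spindle assembly factor, at 6.66 at 3 days and 4.33 in sham. The sham signal lay under the filter for 25 of these 46 genes, 21 of them among the 33 that rose. Among replication licensing genes 5 of 17 rose (median 0.74, and 0.47 with no filter), 4 of them subunits of the helicase loaded at origins, Mcm3 (5.84 at 3 days and 3.73 in sham), Mcm6 (2.03), Mcm5 (1.44) and Mcm2 (1.25). Among genes of DNA synthesis 3 of 22 rose (median 0.50) and all 22 lay above 0. At the exon level the medians over the same genes were 1.07 for licensing and 0.79 for DNA synthesis. The difference between the division lists was not tested.

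Of the cyclins and their partners, Ccna2, the cyclin of S phase and mitosis, was at 8.21 at 3 days and 4.48 in sham (4.07 ± 1.60 over 13 probe sets), and Ccnd1, which starts the cycle, at 9.44 at 3 days and 7.45 in sham. The inhibitors Cdkn1a (8.48 at 3 days and 5.86 in sham) and Cdkn2c (5.28 at 3 days and 2.75 in sham) rose as well, so both sides of the cell cycle brake stood above sham. The neuronal activator of Cdk5, Cdk5r1, fell by 1.18. In the list of p53 targets and apoptosis regulators 10 of 30 rose and none fell (median 0.66), with the death receptor protease Casp8 at 8.59 at 3 days and 6.02 in sham and the stress genes Gadd45b and Gadd45a at 2.37 and 1.62.

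The promoters of mitotic genes are shown for their cell cycle element, which represses these genes outside G2 and mitosis. Its letters, TTTGAA on either strand, stood in 30 of the 39 list promoters (76.9%), in 19.3% of promoters of genes that rose, in 9.53% of those that fell and in 11.8% over all tested genes. The CCAAT box stood in 71.8% of the mitotic promoters and in 38.2% over all. The replication factor letters TTTCNCGC stood in 5 of 14 licensing promoters (35.7%) and in 3.63% over all. Prc1 (chr7:80294201-80294500, + strand) holds TTTGAA at -5 from the start, and Top2a (chr11:99024140-99024439, - strand) at -179 and -23, the one nearer the start on the opposite strand.
Prc1: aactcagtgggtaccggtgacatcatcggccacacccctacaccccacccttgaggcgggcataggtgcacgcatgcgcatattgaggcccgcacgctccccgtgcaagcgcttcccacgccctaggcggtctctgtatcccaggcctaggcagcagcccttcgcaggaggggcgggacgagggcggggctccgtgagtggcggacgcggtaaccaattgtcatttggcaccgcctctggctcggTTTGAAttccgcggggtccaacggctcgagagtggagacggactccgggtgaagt
Top2a: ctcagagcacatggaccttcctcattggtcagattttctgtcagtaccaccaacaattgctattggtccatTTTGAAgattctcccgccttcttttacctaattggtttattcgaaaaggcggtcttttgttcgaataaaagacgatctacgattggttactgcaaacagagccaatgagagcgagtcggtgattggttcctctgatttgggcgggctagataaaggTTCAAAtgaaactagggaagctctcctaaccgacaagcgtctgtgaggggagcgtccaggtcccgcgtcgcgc

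Stress pathways are given in turn, with no test between them. Immediate early and stress transcription factors had 12 of 31 higher and none lower (median 0.62). Atf3, induced by axon injury and other stress, was at 8.25 at 3 days and 3.34 in sham, 30.2-fold higher, Myc at 7.51 at 3 days and 4.82 in sham and Fos at 6.76 at 3 days and 4.97 in sham. Targets of the antioxidant factor Nrf2 had none of 19 past 2-fold in either direction (median 0.05, range -0.45 to 0.97), although Hmox1, which that factor also induces, was among the largest rises. Targets of Atf4 had 3 of 27 higher (median 0.17), and chaperones 3 of 26 higher and 1 lower (median 0.40), led by the small heat shock gene Hspb8 at 8.93 at 3 days and 7.11 in sham. None of 25 proteasome subunits changed by 2-fold (median 0.16, range -0.35 to 0.42). Ribosomal protein genes had 3 of 9 tested members higher out of 42 listed, too few to describe the ribosome, and ribosome biogenesis genes 3 of 25 with a median of 0.01.

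In energy metabolism no gene of the respiratory chain and ATP synthase passed 2-fold (0 of 27, median -0.33, range -0.69 to 0.03), and 24 of the 27 lay below 0. The tricarboxylic acid cycle list had 3 of 19 lower (median -0.51), the isocitrate dehydrogenase chain Idh3a (-1.02), pyruvate carboxylase Pcx (-1.11) and the aminotransferase Got1 (-1.23). Glycolysis and hypoxia genes had 4 of 25 higher and 2 lower (median -0.18), and isoforms parted. The lactate exporter Slc16a3 was at 6.40 at 3 days and 4.14 in sham and hexokinase Hk2 at 5.83 at 3 days and 4.08 in sham, and the muscle enolase Eno3 rose by 1.26, while the neuronal enolase Eno2 fell by 1.24 and the neuronal glucose transporter Slc2a3 by 1.06.

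Genes of lipid synthesis fell and none of those tested rose. In cholesterol synthesis 13 of 19 tested genes fell, none rose, and all 19 lay below 0, with a median of -1.21 and an exon-level median of -1.24 over the same genes. Lss, which closes the sterol ring, was at 5.92 at 3 days and 7.95 in sham (-2.08 ± 0.48 over 23 probe sets). Cyp51, which removes a methyl group from lanosterol, was at 7.95 at 3 days and 9.58 in sham, and Insig1, a sterol-induced brake on the pathway, at 7.94 at 3 days and 9.51 in sham. The entry enzyme Hmgcs1 fell by 1.40, and Sqle, the first oxygen-using step, by 1.37. Of 30 fatty acid and sphingolipid genes 16 fell and none rose (median -1.01). Sgpp2, a sphingosine phosphate phosphatase, was at 5.60 at 3 days and 8.25 in sham, the elongase Elovl6 at 6.90 at 3 days and 8.96 in sham and Ugt8a, which makes the galactolipids of myelin, at 9.32 at 3 days and 11.24 in sham. Fa2h, which hydroxylates the fatty acids of those lipids, was at 8.55 at 3 days and 10.46 in sham and Fasn, the fatty acid synthase, at 7.66 at 3 days and 9.05 in sham. The sterol element TCACNCCAC stood in 1 of 16 cholesterol promoters, that of Hmgcs1 (6.25%, against 1.14% over all tested genes). The CCAAT box stood in 14 of the 16 (87.5%, against 38.2% over all tested genes).

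**Figure D4:**
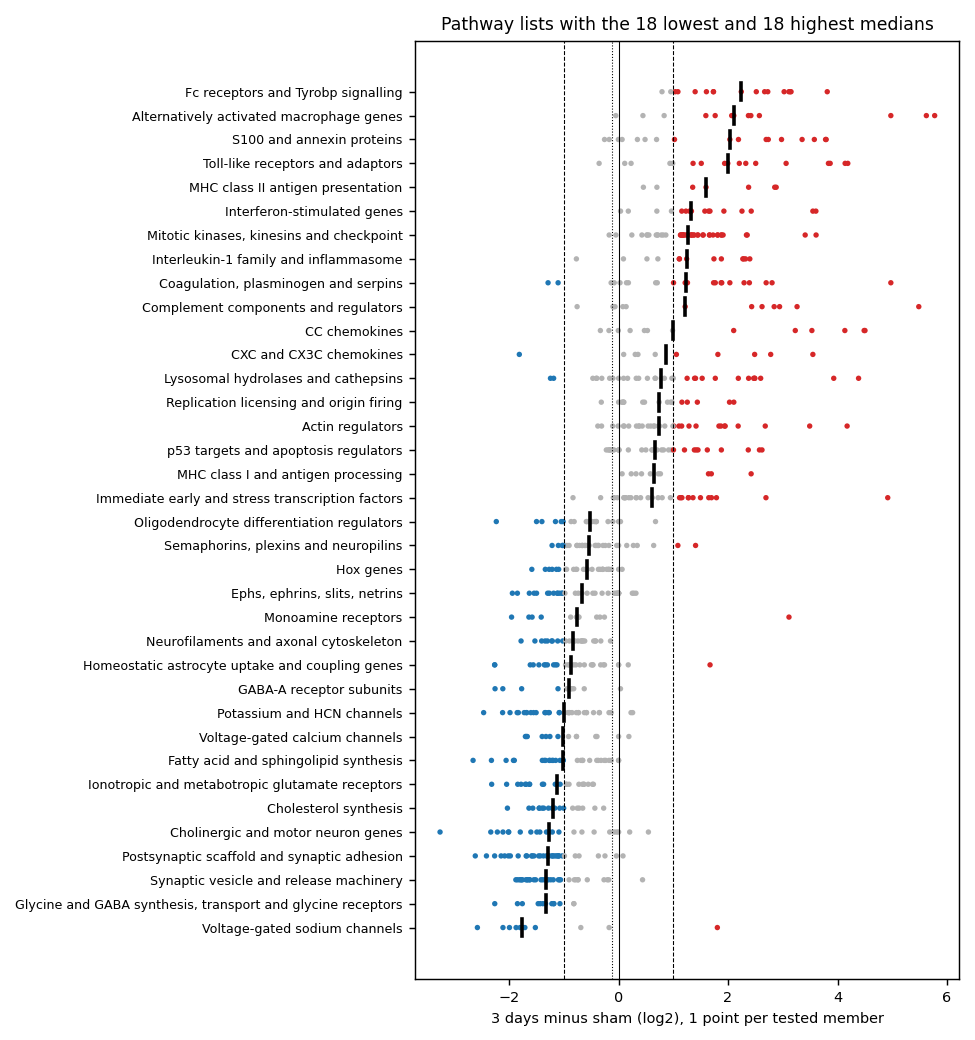
Log2 difference, 3 days minus sham (horizontal axis), of every tested member (points, red at least 2-fold higher, blue at least 2-fold lower) of the 36 pathway lists (vertical axis) with the 18 highest and 18 lowest medians among those with at least 7 tested members. Black bars are list medians, the dotted line is the median of all tested genes at -0.12, and phagocyte receptor lists stand at the top and sodium channels and inhibitory transmission at the bottom.

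Genes of the synapse fell in both of the lists that describe it. Of 34 synaptic vesicle and release genes 24 fell and none rose (median -1.32), and of 36 genes of postsynaptic scaffolds and synaptic adhesion 29 fell and none rose (median -1.30). In the vesicle list, Syn3, a vesicle-tethering synapsin, was at 6.44 at 3 days and 8.31 in sham, the vesicle protein Sv2b at 6.31 at 3 days and 8.16 in sham and the active zone organiser Rims1 at 6.02 at 3 days and 7.83 in sham. In the scaffold and adhesion list, the axonal adhesion molecule Cntn4 was at 4.67 at 3 days and 7.08 in sham, the synapse-inducing receptor Slitrk3 at 5.86 at 3 days and 8.12 in sham and the scaffold Dlg2 at 6.73 at 3 days and 8.32 in sham. The range of the vesicle list was from -1.88 to 0.44, with Syt4 the single member above 0.

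Transmitter systems followed the same direction in both signs of transmission. Of 13 glycine and GABA genes 11 fell and none rose (median -1.34). Slc6a11, a GABA transporter of astrocytes, was at 8.0 at 3 days and 10.26 in sham (-2.32 ± 0.71 over 16 probe sets), the glycine transporter of glycinergic terminals Slc6a5 at 7.31 at 3 days and 9.16 in sham and the glycine receptor chain Glra1 at 8.34 at 3 days and 10.10 in sham. GABA-A receptor and associated genes had 4 of 10 lower (median -0.91), with the alpha chain Gabra5 at 6.57 at 3 days and 8.82 in sham and the beta chain Gabrb2 at 5.43 at 3 days and 7.55 in sham. Of 23 glutamate receptor and transport genes 13 fell and none rose (median -1.13). Grm3, a metabotropic receptor, was at 5.15 at 3 days and 7.47 in sham, the NMDA receptor chain Grin2b at 4.98 at 3 days and 7.03 in sham and the AMPA receptor auxiliary chain Cacng2 at 7.71 at 3 days and 9.55 in sham.

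Ion channel genes of several families fell. The sodium channel list had 8 of 11 lower and 1 higher, with the lowest median of the pathway lists shown (-1.76). Scn1a and Scn8a, pore subunits of central axons, were at 6.53 at 3 days and 9.11 in sham and at 6.30 at 3 days and 8.42 in sham. The one that rose was Scn9a, a pore subunit known from sensory and sympathetic neurons, at 4.65 at 3 days and 2.85 in sham, where the sham array was under the filter level and no probe set passed, so it has no reading at the exon level. Of 36 potassium and HCN channel genes 17 fell and none rose (median -0.99). Kcnj3, a channel opened by G proteins, was at 5.44 at 3 days and 7.90 in sham (-2.47 ± 0.15 over 4 probe sets), the fast-spiking channel Kcnc1 at 5.64 at 3 days and 7.76 in sham and the axonal channel Kcna2 at 7.09 at 3 days and 9.07 in sham. Voltage-gated calcium channels had 7 of 14 lower (median -1.01), with the alpha-2-delta subunit Cacna2d2 at 5.81 at 3 days and 7.51 in sham.

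Cholinergic and motor neuron genes had 14 of 23 lower and none higher (median -1.26). Chodl, expressed by fast motor neurons, was at 3.78 at 3 days and 7.04 in sham, 9.59-fold lower (-3.44 ± 1.15 over 9 probe sets). The nicotinic chain Chrna4 was at 5.14 at 3 days and 7.47 in sham, the nuclear receptor Esrrg at 4.90 at 3 days and 7.11 in sham and the choline transporter Slc5a7 at 5.43 at 3 days and 7.44 in sham. Neuropeptides and their receptors had 8 of 23 lower and 1 higher (median -0.45). The one that rose was Gal, the injury-induced peptide galanin, at 6.43 at 3 days and 4.03 in sham, and among those that fell were Calcb, a calcitonin gene-related peptide (4.25 at 3 days and 6.36 in sham), and the opioid-family receptor Oprl1 (4.92 at 3 days and 6.62 in sham). Of 12 monoamine receptors 4 fell and 1 rose. The one that rose was Htr2b, a serotonin receptor also known from microglia and vessels, at 5.69 at 3 days and 2.57 in sham, and Htr2c, a serotonin receptor of neurons, was at 6.62 at 3 days and 8.57 in sham.

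Genes of the axonal skeleton and RNA-binding genes fell in part. Neurofilament and axonal cytoskeleton genes had 9 of 25 lower (median -0.83), all 25 lying below 0. Ina, the internexin filament, was at 8.55 at 3 days and 10.34 in sham, the tau gene Mapt at 6.73 at 3 days and 8.14 in sham and the heavy neurofilament Nefh at 8.85 at 3 days and 10.07 in sham. Among RNA-binding and splicing regulators 6 of 22 fell and 1 rose. The neuronal stabiliser Elavl4 was at 6.06 at 3 days and 8.24 in sham and Rbfox3, known as the nuclear antigen NeuN, at 6.89 at 3 days and 8.45 in sham, while Ptbp3, a splicing repressor of blood and other non-neuronal cells, was at 8.58 at 3 days and 6.59 in sham. Of the genes associated with axon regeneration 7 of 20 rose and 1 fell (median 0.34, and 0.19 with no filter). Sprr1a, a small proline-rich protein induced in regrowing sensory neurons, was at 10.05 at 3 days and 3.84 in sham at the gene level, 73.8-fold, and at 2.92 ± 2.84 over 3 probe sets, so its size differed between the levels.

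Positional and interneuron identity genes fell in part and none rose, with 22.2% of Hox genes and 20.7% of interneuron factors lower against 9.58% of all tested genes. Of 27 Hox genes 6 fell and none rose (median -0.57), with Hoxb8 at 6.74 at 3 days and 8.33 in sham and Hoxc10 at 6.0 at 3 days and 7.34 in sham. Of 29 dorsal and ventral interneuron transcription factors 6 fell and none rose (median -0.42), with Satb1, a chromatin organiser, at 6.37 at 3 days and 7.76 in sham. Among clock genes none of 15 rose and 3 fell, the output factors Dbp (-1.39) and Hlf (-1.43) and the repressor Nr1d2 (-1.21). The time of day of collection is not stated. Among 8 long noncoding RNAs with a known name, H19, an imprinted transcript of growing tissue and muscle, was at 7.83 at 3 days and 4.42 in sham (3.02 ± 0.74 over 6 probe sets), Snhg5, which hosts small nucleolar RNAs, rose by 1.83 and Snhg11 fell by 1.25.

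Astrocyte and oligodendrocyte genes other than those of reaction fell in part. Homeostatic astrocyte uptake and coupling genes had 11 of 28 lower and 1 higher (median -0.87). Slc7a10, an amino acid exchanger of astrocytes, was at 6.31 at 3 days and 8.57 in sham, the gap junction protein Gja1 at 8.06 at 3 days and 9.52 in sham and the glutamate transporter Slc1a3 at 6.67 at 3 days and 7.98 in sham, and the one that rose was Mertk (7.02 at 3 days and 5.35 in sham), a phagocytic receptor that macrophages also carry. Over the same arrays reactive astrocyte genes had 16 of 20 higher and none lower. Of the 16 that rose, 6 had a sham signal below the filter level. Cd109 was at 7.37 at 3 days and 3.13 in sham (4.33 ± 0.96 over 36 probe sets), the membrane protein Emp1 at 9.41 at 3 days and 5.49 in sham and the cornified envelope enzyme Tgm1 at 7.05 at 3 days and 3.88 in sham, while Gfap itself, the reference filament of reaction, differed by 0.53. Of oligodendrocyte differentiation regulators 6 of 22 fell and none rose (median -0.52), with Ninj2 at 4.59 at 3 days and 6.83 in sham and the receptor Gpr37 at 7.93 at 3 days and 9.43 in sham. Of 16 mature oligodendrocyte and myelin markers 4 fell and none rose (median -0.70). Oligodendrocyte precursor markers had 1 of 11 higher and 1 lower (median -0.44). The structural myelin gene Mbp differed by -0.20, within 2-fold, beside the myelin lipid enzymes Ugt8a and Fa2h given above.

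Vessel genes are given for barrier transport and for activation, with no test between the lists. Blood-cord barrier transporters had 7 of 30 lower and none higher (median -0.34), with the organic anion transporter Slc22a8 at 4.87 at 3 days and 7.06 in sham and the thyroid hormone transporter Slco1c1 at 5.87 at 3 days and 7.48 in sham. Endothelial activation genes had 6 of 33 higher and 1 lower (median 0.09). Angpt2, which loosens vessel walls, was at 6.32 at 3 days and 4.06 in sham and Cd93, a receptor of activated endothelium and myeloid cells, at 6.81 at 3 days and 4.49 in sham. The one that fell was the apelin receptor Aplnr, at 5.96 at 3 days and 7.21 in sham.

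Genes of the wound matrix rose in part. Matricellular and provisional matrix proteins had 12 of 30 higher and 1 lower (median 0.48), against 7 of 34 collagens (median 0.00, 9 of the 34 at exactly 0), 4 of 16 collagen processing genes and 5 of 24 laminin and basement membrane genes. Thbs1, a platelet and macrophage glycoprotein, was at 9.36 at 3 days and 4.81 in sham, Tgfbi, a collagen-binding adhesion protein, at 9.54 at 3 days and 6.14 in sham (3.46 ± 0.36 over 20 probe sets) and Tnc, the tenascin of wounds, at 8.33 at 3 days and 5.15 in sham. Fn1, fibronectin, was at 9.75 at 3 days and 6.63 in sham. Of the collagens, Col12a1 was at 6.35 at 3 days and 4.26 in sham and Col1a1 at 8.78 at 3 days and 6.94 in sham. No test of the difference between these lists was made.

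Proteoglycans lay on both sides. In the list 7 of 38 rose and 8 fell (median -0.04). Those that rose included Srgn, the granule proteoglycan of leukocytes (10.77 at 3 days and 8.52 in sham), and the small fibril-binding Lum (6.02 at 3 days and 3.82 in sham), and those that fell included parts of the perineuronal net, with Hapln4 at 6.36 at 3 days and 8.46 in sham and Bcan at 6.68 at 3 days and 8.35 in sham, and the heparan sulfate enzyme Ndst4 (3.54 at 3 days and 6.20 in sham). Metalloproteinases and inhibitors had 7 of 31 higher and 2 lower (median 0.26, and 0.14 with no filter). Adam8, a protease of leukocytes, was at 8.08 at 3 days and 4.12 in sham, and Adamts1, which cuts proteoglycans, at 7.76 at 3 days and 5.42 in sham. Timp1, an inhibitor, was at 9.23 at 3 days and 3.59 in sham, while Mmp9, a gelatinase of neutrophils, had 5.62 on both arrays. For Mmp9 this may not be a measured equality. Coagulation, plasminogen and serpin genes had 13 of 22 higher and 2 lower (median 1.24). Plau, the urokinase activator, was at 6.35 at 3 days and 3.55 in sham and its receptor Plaur at 5.74 at 3 days and 4.01 in sham, clotting factors F10 and F7 differed by 2.39 and 1.87, and the neuronal serpin Serpini1 fell by 1.11.

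In growth factor and patterning pathways genes rose and fell, and the lists lay on both sides of the share called over all genes (15.5%). Neurotrophic factors and receptors had 7 of 41 higher and 7 lower, with the growth factor binding protein Igfbp3 at 8.32 at 3 days and 5.67 in sham, the epidermal factor Hbegf at 8.57 at 3 days and 6.89 in sham, the glia-activating factor Fgf9 at 5.81 at 3 days and 8.27 in sham and the neuregulin receptor Erbb3 at 5.67 at 3 days and 6.84 in sham. TGF-beta and BMP genes had 5 of 40 higher and 4 lower, with Tgfb1 at 7.75 at 3 days and 5.38 in sham and Smad9 at 5.02 at 3 days and 6.83 in sham. Wnt genes had none of 44 higher and 5 lower, with the receptor Lgr5 at 4.37 at 3 days and 6.31 in sham. In the Notch and hedgehog list 1 of 26 rose and 3 fell. Of those that fell, 2 are targets and antagonists of hedgehog, Hhip (4.06 at 3 days and 6.82 in sham) and Ptch1 (6.81 at 3 days and 8.19 in sham). The one that rose was the ligand Shh, by 1.12. At the exon level, 0 of the 29 list members with probe sets were at least 2-fold higher. Of Eph, ephrin, slit and netrin genes 13 of 33 fell and none rose (median -0.67), with Epha4 at 4.83 at 3 days and 6.77 in sham and the slit receptors Robo2 and Robo1 at -1.54 and -1.50. Semaphorins and plexins had 2 of 32 higher and 4 lower, and the 2 that rose, Plxnd1 (1.41) and Plxnb2 (1.08), are plexins known from vessels and macrophages.

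Markers of cells that do not belong to the cord were read beside these results. Of 15 tested skeletal muscle markers 10 rose and none fell (median 2.45), and their mean signal was 6.67 at 3 days and 4.69 in sham. Acta1, skeletal actin, was at 9.33 at 3 days and 5.25 in sham, the fast troponin Tnnc2 at 8.20 at 3 days and 4.22 in sham and the myosin chain Myl1 at 6.34 at 3 days and 3.13 in sham. Desmin, Des, which smooth and skeletal muscle share, was at 6.98 at 3 days and 4.01 in sham, and the muscle form enolase Eno3 named above is another such gene. The share of other results that muscle RNA carries was not tested. Neutrophil markers had 9 of 15 higher (median 1.21, and 2.05 at the exon level over the members that have probe sets, mean signal 5.89 at 3 days and 4.23 in sham), with the late granule genes Ngp (7.29 at 3 days and 4.67 in sham) and Retnlg (6.42 at 3 days and 3.87 in sham) higher and the early granule genes Mpo (0.34), Elane (0.20) and Prtn3 (0.00) not. Monocyte and macrophage markers had 11 of 12 higher (median 3.69). Of the 11 that rose, 7 had a sham signal below the filter level, so the size of their rise is rough. Homeostatic microglia markers had 2 of 13 higher (median 0.56), with Tmem119 and P2ry12 at 0.04 and 0.03.

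Markers of lymphocytes, mast cells and dendritic cells gave no rise at the gene level. None of 8 T cell, 4 B cell, 3 natural killer cell, 2 mast cell and 4 dendritic cell markers that passed the filter rose. Of the 4 dendritic cell markers 1 fell. The T cell receptor chain Cd3e was at 3.59 at 3 days and 3.71 in sham, below the filter level on both arrays. At the exon level, 1 of 12 T cell and 1 of 9 B cell markers had a probe set median at least 2-fold higher. Fibroblast and meningeal markers had 8 of 17 higher and 1 lower (median 0.58), Schwann cell markers 4 of 11 higher and 1 lower, pericyte and smooth muscle markers 1 of 11 higher and 1 lower, and endothelial markers 3 of 13 higher and 1 lower. Gldn, which gathers sodium channels at peripheral nodes, was at 8.67 at 3 days and 5.04 in sham, and Tagln, an actin-binding protein of smooth muscle, at 7.85 at 3 days and 4.39 in sham. Acp5, the acid phosphatase of osteoclasts and macrophages, was at 7.13 at 3 days and 3.96 in sham, and Ibsp, bone sialoprotein, at 2.81 above sham. These are the 2 of 13 cartilage and bone markers that rose, and what share of them came from bone was not tested. Neuron markers had 11 of 17 lower and none higher (median -1.24).

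The lists cover 342 of the 669 genes that rose and 290 of the 1080 that fell, so most falls lie outside them. Of the 40 largest rises with concordant probe sets, 7 were in no list. Ms4a6d, a membrane protein of macrophages, was at 7.36 at 3 days and 2.09 in sham (5.48 ± 1.31 over 11 probe sets) and Hal, a histidine-degrading enzyme, at 8.67 at 3 days and 3.64 in sham (5.27 ± 1.51 over 23 probe sets). Igsf6, an immunoglobulin-like protein of myeloid cells, was at 8.24 at 3 days and 3.98 in sham, Slfn2, which regulates quiescence of immune cells, at 7.09 at 3 days and 2.90 in sham, and Apobec1, a cytidine deaminase, at 8.17 at 3 days and 4.04 in sham. Akr1b8, an aldo-keto reductase, was at 6.89 at 3 days and 3.10 in sham and Saa3, an acute-phase protein of macrophages in the mouse, at 7.57 at 3 days and 3.82 in sham. Several of these are genes of myeloid cells.

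Of the 40 largest concordant falls, 16 were in no list. Cdh12, a brain cadherin, was at 4.87 at 3 days and 7.39 in sham (-2.63 ± 0.72 over 15 probe sets), Dab1, the intracellular adaptor of reelin, at 5.91 at 3 days and 8.32 in sham and Hecw1, a neuronal ubiquitin ligase, at 5.70 at 3 days and 7.99 in sham over 34 probe sets. Vstm2a was at 7.09 at 3 days and 9.26 in sham, Nrn1, a neurite-promoting surface protein, at 7.17 at 3 days and 9.29 in sham, Olfm3 at 4.57 at 3 days and 6.73 in sham and Prmt8, a brain methyltransferase, at 3.64 at 3 days and 5.82 in sham. Enzymes of phospholipids and glycans were among the others, with the acyltransferase Lpcat4 at 5.90 at 3 days and 8.06 in sham, Gdpd3, which makes lysophosphatidic acid, at 3.35 at 3 days and 5.79 in sham and the galactosyltransferase B3galt2 at 5.19 at 3 days and 7.30 in sham. The rest were Bend6 (-2.40), Susd2 (-2.29), Nap1l3 (-2.19), Egfl6 (-2.16), Tlcd1 (-2.15) and Cnnm1 (-2.14).

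Genes that share a symbol stem give another view across the array, counted without regard to function. Of the 59 genes with the stem Cd, the leukocyte surface antigens and others, 23 rose, and of 34 with the stem Il 12 rose. Cadherins (Cdh) had 2 of 15 higher and 6 lower (median -0.76), and synaptotagmins (Syt) none of 16 higher and 7 lower (median -0.75). The beta protocadherins (Pcdhb) had 5 of 15 lower and all 15 below 0. Solute carriers (Slc), the largest stem with 238 genes, had 10 higher and 40 lower. Olfactory receptor genes (Olfr) had 8 of 69 higher and 4 lower (median 0.07). Zinc finger genes named Zfp had 2 of 186 higher and 9 lower. Over all tested genes the shares were 5.94% and 9.58%.

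The other times share the sham array, and their values are given side by side. The 669 genes that rose had median differences of 1.05, 1.70, 2.41 and 1.57 in the pools of 1 day, 3 days, 1 week and 3 weeks after injury. The 1080 that fell had -0.87, -1.29, -1.69 and -0.84 in the same order. Their highest array was 1 week for 444 of the genes that rose and 3 days for 85, and the lowest was 1 week for 769 of those that fell and 3 days for 260. The genes were chosen at 3 days, so its values are not comparable evidence beside the other times.

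A smaller group was most extreme at 3 days, by at least 0.5 beyond every other array. It was sought among the 669 genes that rose and the 1080 that fell. Its members also had at least 4 probe sets and a probe set median of at least 1 the same way. By these rules it held 16 genes high and 24 low. Arg1, the arginase of repair macrophages, had signals of 3.84 (sham), 8.03 (1 day), 9.61 (3 days), 8.32 (1 week) and 3.81 (3 weeks). Ccl2 had 4.48 (sham), 8.10 (1 day), 8.61 (3 days), 7.01 (1 week) and 5.33 (3 weeks). Nes, the intermediate filament of neural progenitors and regenerating muscle, had 3.97 (sham), 6.73 (1 day), 7.57 (3 days), 5.75 (1 week) and 5.33 (3 weeks). Muscle genes were among the 16, with Des, Mustn1, Pdlim3, Ankrd1 and Csrp3, and so were the interferon-induced genes Rsad2 and Oasl1. Cd274, which encodes the inhibitory ligand PD-L1, had 5.32 (sham), 6.68 (1 day), 7.55 (3 days), 6.97 (1 week) and 6.70 (3 weeks). Of the genes lowest at 3 days, Hhip had 6.82 (sham), 4.81 (1 day), 4.06 (3 days), 5.10 (1 week) and 6.62 (3 weeks), the receptor Robo1 had 7.64 (sham), 6.91 (1 day), 6.14 (3 days), 6.72 (1 week) and 7.62 (3 weeks) and Dio2, the enzyme that activates thyroid hormone, had 6.43 (sham), 6.43 (1 day), 5.07 (3 days), 6.60 (1 week) and 7.18 (3 weeks). Dio2 had the same deposited value in sham and at 1 day, which may not be a measured equality.

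**Figure D5:**
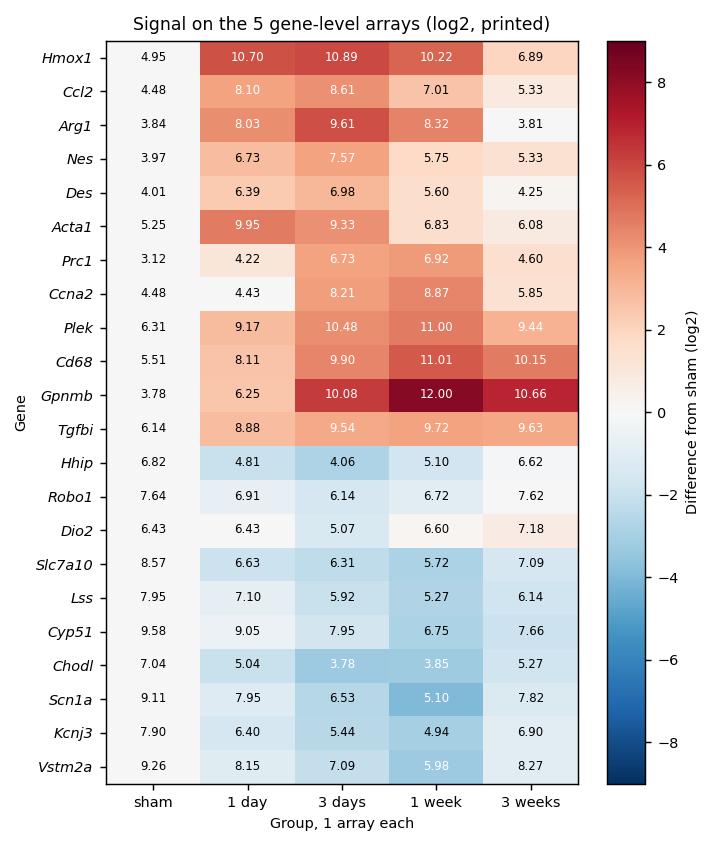
Log2 signal (printed in each cell) of 22 genes (vertical axis) on the 5 gene-level arrays (horizontal axis, 1 array each), with colour for the log2 difference from sham. Arg1, Ccl2 and Nes are highest and Hhip, Robo1 and Dio2 lowest at 3 days, while Cd68, Gpnmb, Ccna2, Scn1a and Chodl were followed to 1 week, where all but Chodl were farther from sham.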

How the data were processed

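RNA of the T10 spinal cord was measured at 3 days after injury and after sham, 1 pool of 3 mice each, at the gene and exon level. The deposited values are log2 signals. Base 2 was taken because the highest value as a natural logarithm would exceed the 65535 of a 16-bit scanner. Per the labels' protocols, Affymetrix whole-transcript kits made the labelled DNA, and per the submitters' processing notes GCOS and the mm8 build were used. Background correction, normalization, probe summary and array depth were not given in the sources used here. The 1 array per group limits the precision of every value, and there is no p-value.

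Gene names came from the platform annotation, brought up to date through RefSeq (GRCm38.p6) for 14941 of 14996 clusters with 1 symbol. No coordinates of the platform were used. Of several clusters with 1 symbol, the one with the highest mean over the 5 arrays was taken. Clusters and probe sets were kept at or above the 40th percentile (3.79 and 4.85) on at least 1 of the 5 arrays. A fold of 2 counted as a rise or fall. The calculation was run on simulated data as a check of the code only, with planted changes well past 2-fold and little noise. Such a run cannot say how well real changes are found.

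Members of 97 gene lists were described by counts and medians. The lists, the comparison and the rules for naming genes were chosen with earlier results of these data known. Named genes were drawn from the 40 largest rises and 40 largest falls that met rules on probe sets, and not all are named. The rules were at least 4 probe sets, 75% of them moving the same way and a probe set median of at least 1. Other sources were up to 5 rises and 5 falls per list, members that define a role, and genes at odds between the levels. The last were picked after their values were seen, as were the promoters printed. Of the tested genes, 9059 had a RefSeq promoter of 300 bases, and 10 motifs were searched on both strands. Python 3.11.15, pandas 2.3.3, numpy 2.4.6, scipy 1.17.1 and matplotlib 3.10.9 were used. Alternatives were array centring, quantile normalization, other filters, other folds, the exon level and the mean of clusters.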

Additional observations from a re-analysis of the deposited data

Results flagged for a closer look

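The homeostatic microglia markers, 13 tested genes that resident microglia express at rest, had a median difference from sham of 0.56 at 3 days and -1.15 at 1 day. The 2 medians have opposite signs and share the sham array. The difference between the times was not tested.

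Transcript clusters without a gene name, or with several, were left out of the comparison of named genes. Of 3821 such clusters past the filter, 288 (7.54%) were at least 2-fold higher and 336 (8.79%) at least 2-fold lower at 3 days than in sham, with a median difference of -0.09. Over the named genes the shares were 5.94% and 9.58%.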

How the results depend on the processing

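The counts of 669 higher and 1080 lower genes moved by less than 1.5 times under array centring, quantile normalization, the other filters, the exon level and the mean of the clusters of a symbol. At a 1.5-fold call they were 1137 and 2453, with 31.7% of calls higher, and at a 4-fold call 247 and 55, with 81.8% higher. The share of higher calls, 38.3% as deposited, was 50.6% after quantile normalization and 34.9% under a stricter filter. The median of all tested genes, -0.12 as deposited, was -0.016 after quantile normalization, -0.040 with no filter, -0.20 under the stricter filter and -0.23 over exon-level probe set medians. No list median of at least 1 in size changed sign. Of the 24 such lists, 19 kept at least 1 the same way under every one of these alternatives other than the fold. The filter moved the medians of some lists of low signal by over 1.5 times, since it changes which members enter. Under the stricter filter the median was 3.53 for CC chemokines, 2.62 for complement, 2.61 for MHC class II, 2.58 for neutrophil markers, 2.16 for matricellular proteins, 1.88 for the interleukin-1 list, 1.70 for oxidative enzymes, 1.28 for fibroblast markers, 1.11 for immediate early factors, 1.03 for integrins, -0.78 for interneuron factors and -1.03 for ephrins and slits. The sign changed in 9 lists, the largest of them with a median of 0.46 in size. B cell, natural killer cell and mast cell lists could not be given a value under the stricter filter. The cause of these shifts was not tested. No paired analysis was possible because each group has 1 pool, and the tables carry no detection call, so signal over background limits the low rises.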
